A study of Homo sapiens with 8 samples.

Results

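The collagen genes described here were 10 genes taken by symbol: *COL4A1*, *COL4A2*, *COL4A4*, *COL5A1*, *COL7A1*, *COL8A1*, *COL12A1*, *COL16A1*, *COL17A1* and *COL18A1*. They were chosen from earlier results on the same libraries, so every level and fold change given for them is a description, and no p-value is printed for any of them. Of the 10 symbols, 9 were found among the 13842 genes of the expression table. *COL5A1* was not among them and was not analysed here. The table held 22 collagen genes in all, so 13 further collagen genes served as the family background.

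Collagens are proteins of the extracellular matrix whose chains wind into a triple helix, and they differ in where they assemble. Type IV collagens form the network of the basement membrane on which breast epithelium rests. Collagen XVII spans the membrane in the hemidesmosome, the junction that holds a basal epithelial cell to that sheet, and collagen VII forms the anchoring fibrils beneath it, whereas collagens XII and XVI sit on the surface of other fibrils and collagen XVIII belongs to basement membranes.

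RNA-seq was performed on MCF10A, a non-tumorigenic human line of breast epithelium, and on DCIS.COM cells, a derivative of the MCF10 series that models ductal carcinoma in situ (DCIS). Each line was stably transduced either with pLOC-*MALINC1*, a vector carrying the long non-coding RNA *MALINC1*, or with pLOC-empty as control, and was then selected with blasticidin, giving 4 groups of 2 libraries each and 8 libraries in all. All groups thus carry a vector and its selection marker, and the labels do not state whether libraries of a group came from separate transductions or cultures, so the spread between them may be technical. MCF10A cells were grown with horse serum, epidermal growth factor, hydrocortisone, insulin and cholera toxin and DCIS.COM cells with horse serum alone, so a difference between the lines cannot be told apart from a difference between their media.

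The libraries held 20604377 to 37550457 reads on genes. *MALINC1* itself stood at 1.07 and 1.58 CPM, the read count of a gene scaled to a common library size, in MCF10A with pLOC-empty and at 13.3 and 11.8 CPM with pLOC-*MALINC1*. In DCIS.COM it stood at 1.42 and 1.22 CPM with pLOC-empty and at 24.5 and 19.2 CPM with pLOC-*MALINC1*, so the labels of all 8 libraries matched the vector. All 6 basal and epithelial markers looked up were present, summing to between 18254 and 25172 CPM in MCF10A and between 2595 and 2932 CPM in DCIS.COM. *KRT5*, *KRT14* and *KRT17* carried most of that sum, whereas *EPCAM* (means of 62.3 and 280.2 CPM) and *TP63* (4.99 and 56.7 CPM) were higher in DCIS.COM than in MCF10A with pLOC-empty, and *TP63* stood at 41.0 CPM in MCF10A with pLOC-*MALINC1*. All 4 luminal markers were present too, summing to 1279 to 1638 CPM in MCF10A and 3214 to 3472 CPM in DCIS.COM. Of 8 fibroblast markers only *COL1A1* was among the genes of the table. Of 4 endothelial markers only *PECAM1* was, at means of 1.08 and 0.815 CPM in MCF10A and of 6.71 and 0.204 CPM in DCIS.COM with pLOC-empty and pLOC-*MALINC1*. Of 4 leukocyte markers *PTPRC* and *CD3E* were not in the table, and *CD68* and *CD14* summed to 4.25 to 14.4 CPM over all libraries. The part of these markers in the results that follow was not tested. *RN7SL1* and *RN7SL2*, abundant non-coding RNAs of the signal recognition particle, took 8.22% to 15.7% of the reads, and less with pLOC-*MALINC1* than with pLOC-empty in both lines.

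The type IV genes lie head to head in pairs, and *COL4A1* and *COL4A2* are the pair of which both genes are described here. In the GENCODE annotation of GRCh37, *COL4A1* lies on the minus strand at chr13:110801310-110959504 and *COL4A2* on the plus strand at chr13:110958159-111165556. The start sites of their canonical transcripts are 127 bp apart. The whole stretch between them is printed here as 128 bases of the plus strand of GRCh37, chr13:110959504-110959631. The capitals mark its 1 CCAAT and its 1 GGGCGG, and 79.7% of its bases are G or C.

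COL4A1 and COL4A2: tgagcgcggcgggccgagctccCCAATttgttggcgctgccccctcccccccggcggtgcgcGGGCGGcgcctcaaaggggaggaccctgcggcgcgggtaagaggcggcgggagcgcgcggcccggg

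*COL4A4* had the lowest log2 fold change of the 9 genes in MCF10A, close to that of *COL8A1*, and *COL16A1* was the only one higher past the threshold, and their promoters are shown for that reason. *COL4A4* lies on the minus strand at chr2:227867430-228029169, with its start site 419 bp from that of *COL4A3*. *COL16A1* lies on the minus strand at chr1:32117864-32169920. Each window runs from 250 bp before to 50 bp after the start site, is written from the gene's own strand, and spans chr2:228028872-228029171 for *COL4A4* and chr1:32169569-32169868 for *COL16A1* in GRCh37. The capitals mark matches of GGGCGG and CACCTG on either strand.

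COL4A4: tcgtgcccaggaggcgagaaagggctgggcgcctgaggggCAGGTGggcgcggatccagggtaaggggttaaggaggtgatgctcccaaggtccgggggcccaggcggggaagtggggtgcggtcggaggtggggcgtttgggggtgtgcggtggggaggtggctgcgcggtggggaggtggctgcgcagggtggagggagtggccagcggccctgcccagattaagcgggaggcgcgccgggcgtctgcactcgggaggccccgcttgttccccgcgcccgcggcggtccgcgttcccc

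COL16A1: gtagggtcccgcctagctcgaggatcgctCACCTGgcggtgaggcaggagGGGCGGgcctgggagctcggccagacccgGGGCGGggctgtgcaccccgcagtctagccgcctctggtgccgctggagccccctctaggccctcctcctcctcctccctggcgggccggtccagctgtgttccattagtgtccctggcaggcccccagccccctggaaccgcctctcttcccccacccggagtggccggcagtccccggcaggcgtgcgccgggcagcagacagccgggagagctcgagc

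5 motifs were searched on both strands, and none of them contains another. The AP-1 site, TGACTCA or TGAGTCA, had no match in the window of any of the 9 genes, and 2.98% of the 12369 promoter windows of the same length held it. GGGCGG was found in 73.9% of all windows, CCAAT in 36.3%, CACCTG in 18.5% and TATAAA in 5.67%. Among the 9 windows, that of *COL17A1* stood apart in base composition, with 40.7% G or C against a median of 66.3% over all windows, and it held 1 CCAAT, 1 TATAAA and no GGGCGG. The window of *COL18A1* held 9 matches of GGGCGG and had 86.7% G or C. A match is a run of letters only, and binding of a factor was not measured.

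With pLOC-*MALINC1*, MCF10A cells had about 2-fold to 4-fold lower RNA of the type IV genes *COL4A1*, *COL4A2* and *COL4A4* and of *COL8A1*. *COL16A1* was 7.28-fold higher. A gene was called a differentially expressed gene (DEG) at an adjusted p below 0.01 over all genes and a change above 2-fold, using limma on the deposited log2 CPM. By that rule 5 of the 9 genes were called in MCF10A, 4 lower and 1 higher, beside 5.5% of all genes, and since the genes were chosen with these values known nothing is read from that share. In DCIS.COM none of the 9 passed, beside 4.53% of all genes. Lower RNA of a gene in such bulk libraries can come from fewer cells that make it or from less RNA per cell, and these cannot be told apart.

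**Figure D1:**
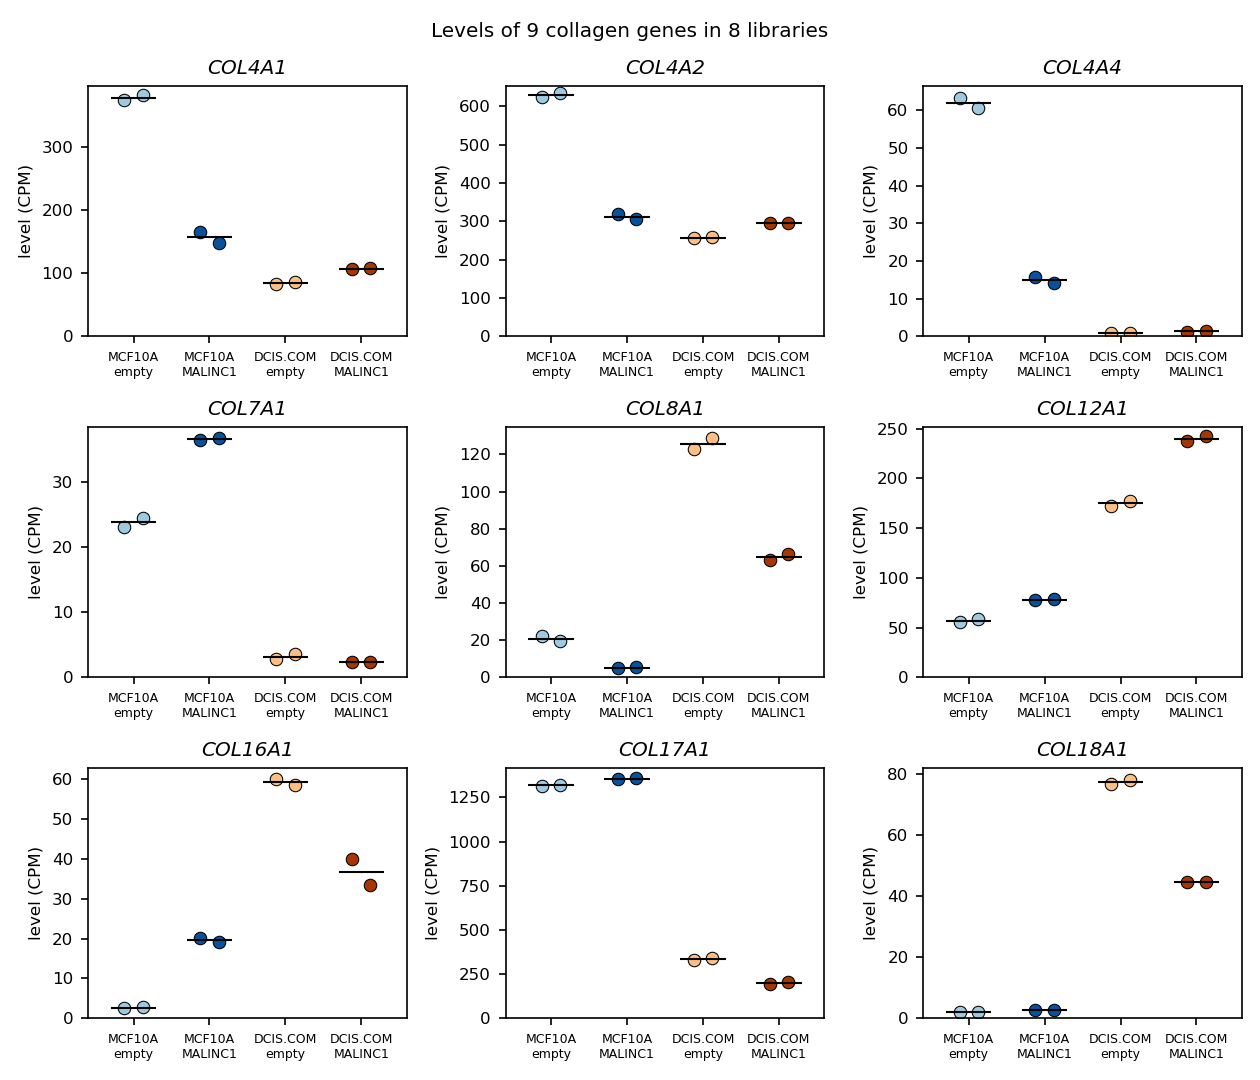
Levels of the 9 collagen genes in CPM (vertical axis, starting at 0, a scale of its own for each gene) in the 4 groups (horizontal axis). Each point is 1 library and each line is the mean of the 2 libraries of a group. The type IV genes are highest in MCF10A with pLOC-empty, *COL16A1* and *COL18A1* are highest in DCIS.COM with pLOC-empty, and *COL17A1* differs mainly between the lines.

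*COL4A1* encodes the α1 chain and *COL4A2* the α2 chain of the widespread type IV heterotrimer. In MCF10A *COL4A1* stood at 374 and 382 CPM with pLOC-empty and at 165 and 149 CPM with pLOC-*MALINC1*. The DCIS.COM libraries held 83.5 and 86.2 CPM with pLOC-empty and 106 and 109 CPM with pLOC-*MALINC1*. The 4 groups did not overlap, the control MCF10A libraries were highest and the control DCIS.COM libraries lowest. The log2 fold change with pLOC-*MALINC1* was −1.27 (SE 0.045) in MCF10A and 0.34 (SE 0.045) in DCIS.COM, where it was short of 2-fold.

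*COL4A2* stood at 625 and 634 CPM in MCF10A with pLOC-empty and at 318 and 307 CPM with pLOC-*MALINC1*. In DCIS.COM the values were 257 and 259 CPM with pLOC-empty and 295 and 295 CPM with pLOC-*MALINC1*. The order of the 4 groups was that of *COL4A1*, and the MCF10A libraries with pLOC-*MALINC1* lay just above the DCIS.COM libraries with the same vector. The log2 fold change was −1.01 (SE 0.031) in MCF10A, just past the 2-fold limit, and 0.20 (SE 0.031) in DCIS.COM. Without replicate 2 of either MCF10A group it was −0.9999 and −0.985, short of the limit.

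The RNAs of the 2 chains changed in the same direction within each line, but by unlike amounts. In CPM, *COL4A2* exceeded *COL4A1* by 1.67 ± 0.0072 times (SD, n = 2) in MCF10A with pLOC-empty and by 1.99 ± 0.099 times with pLOC-*MALINC1*. The ratio was 3.04 ± 0.057 in DCIS.COM with pLOC-empty and 2.75 ± 0.047 with pLOC-*MALINC1*. The ratios of the 4 groups did not overlap.

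*COL4A4* encodes the α4 chain of the type IV network that is best known from the kidney filter, the lens capsule and the cochlea. It stood at 63.3 and 60.7 CPM in MCF10A with pLOC-empty and at 15.8 and 14.3 CPM with pLOC-*MALINC1*, and the log2 fold change was −2.04 (SE 0.14). In DCIS.COM it was near the lower end of the table, at 1.004 and 0.787 CPM with pLOC-empty and at 1.21 and 1.37 CPM with pLOC-*MALINC1*, and the log2 fold change was 0.53 (SE 0.14). Every MCF10A library lay above every DCIS.COM library.

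The other type IV genes of the table were *COL4A3*, *COL4A5* and *COL4A6*. *COL4A3*, the head-to-head neighbour of *COL4A4*, fell in MCF10A from 10.1 and 12.8 CPM to 3.86 and 3.21 CPM, with a log2 fold change of −1.70 (SE 0.21, adjusted p = 2.5e-05). *COL4A5* differed by a log2 fold change of −0.55 there (adjusted p = 2.0e-06), short of 2-fold, and *COL4A6* by −0.18 (adjusted p = 0.035). In DCIS.COM none of these 3 was called.

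*COL17A1* was the named gene with the highest level per transcript length in MCF10A and encodes the transmembrane collagen of the hemidesmosome (chr10:105791044-105845638, minus strand). It stood at 1317 and 1318 CPM in MCF10A with pLOC-empty and at 1356 and 1358 CPM with pLOC-*MALINC1*. In DCIS.COM it stood at 331 and 343 CPM with pLOC-empty and at 193 and 205 CPM with pLOC-*MALINC1*. The MCF10A groups differed by a log2 fold change of 0.042 (SE 0.035), which did not pass the test. The sign of that value turned to −0.08 under quantile normalization. The DCIS.COM groups differed by −0.76 (SE 0.035), lower with pLOC-*MALINC1* in both libraries but short of 2-fold.

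*COL7A1* encodes the anchoring fibril collagen (chr3:48601506-48632762, minus strand). It stood at 23.1 and 24.5 CPM in MCF10A with pLOC-empty and at 36.5 and 36.8 CPM with pLOC-*MALINC1*, and its log2 fold change of 0.62 (SE 0.12) was short of 2-fold. The DCIS.COM values were 2.78 and 3.56 CPM with pLOC-empty and 2.37 and 2.32 CPM with pLOC-*MALINC1*, and the log2 fold change was −0.42 (SE 0.12). It was the only one of the 9 genes that did not pass the adjusted p limit in DCIS.COM.

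*COL8A1*, a short-chain network-forming collagen known from vessel walls and the cornea (chr3:99357319-99518070, plus strand), was lower with pLOC-*MALINC1* in both lines. It stood at 22.1 and 19.4 CPM in MCF10A with pLOC-empty and at 4.92 and 5.36 CPM with pLOC-*MALINC1*, and the log2 fold change was −2.01 (SE 0.070). In DCIS.COM it went from 123 and 129 CPM with pLOC-empty to 63.1 and 66.3 CPM with pLOC-*MALINC1*, and the log2 fold change was −0.96 (SE 0.070). All 4 DCIS.COM libraries lay above all 4 MCF10A libraries. Its value in DCIS.COM was close to the limit, and with *RN7SL1* and *RN7SL2* left out of the library totals it was the 1 named gene called there.

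*COL12A1* and *COL16A1* encode fibril-associated collagens with interrupted triple helices. *COL12A1* (chr6:75794042-75915983, minus strand) stood at 55.7 and 58.3 CPM in MCF10A with pLOC-empty and at 77.6 and 78.7 CPM with pLOC-*MALINC1*. In DCIS.COM it stood at 172 and 177 CPM with pLOC-empty and at 237 and 242 CPM with pLOC-*MALINC1*. The log2 fold change was 0.46 (SE 0.036) in each line, higher in all pLOC-*MALINC1* libraries and short of 2-fold.

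*COL16A1* had the largest log2 fold change of the 9 genes between vectors. It stood at 2.55 and 2.86 CPM in MCF10A with pLOC-empty and at 20.2 and 19.2 CPM with pLOC-*MALINC1*, and the log2 fold change was 2.86 (SE 0.089). The DCIS.COM libraries held 59.9 and 58.5 CPM with pLOC-empty and 39.8 and 33.3 CPM with pLOC-*MALINC1*, and the log2 fold change was −0.70 (SE 0.089). The MCF10A libraries with pLOC-*MALINC1* were thus higher than their controls and the DCIS.COM libraries lower, and the 2 DCIS.COM libraries with pLOC-*MALINC1* differed from each other more than those of the other groups.

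*COL18A1* encodes a basement membrane collagen whose end fragment is endostatin (chr21:46825080-46933634, plus strand). It stood at 2.07 and 2.20 CPM in MCF10A with pLOC-empty and at 2.61 and 2.87 CPM with pLOC-*MALINC1*, and the log2 fold change was 0.36 (SE 0.084). In DCIS.COM it stood at 76.6 and 78.1 CPM with pLOC-empty and at 44.7 and 44.6 CPM with pLOC-*MALINC1*, and the log2 fold change was −0.79 (SE 0.084). Its exons overlap those of *SLC19A1* on the opposite strand, and how the reads were counted by strand was not given in the sources used here. *SLC19A1* lay between 15.7 and 25.6 CPM in all 8 libraries and differed between vectors by 0.59 in MCF10A and by 0.45 in DCIS.COM on the log2 scale. The exons of *COL4A2*, *COL8A1* and *COL16A1* also overlap annotated genes on the opposite strand, whose symbols were not among the genes measured. The part of such overlaps in the counts was not tested.

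**Figure D2:**
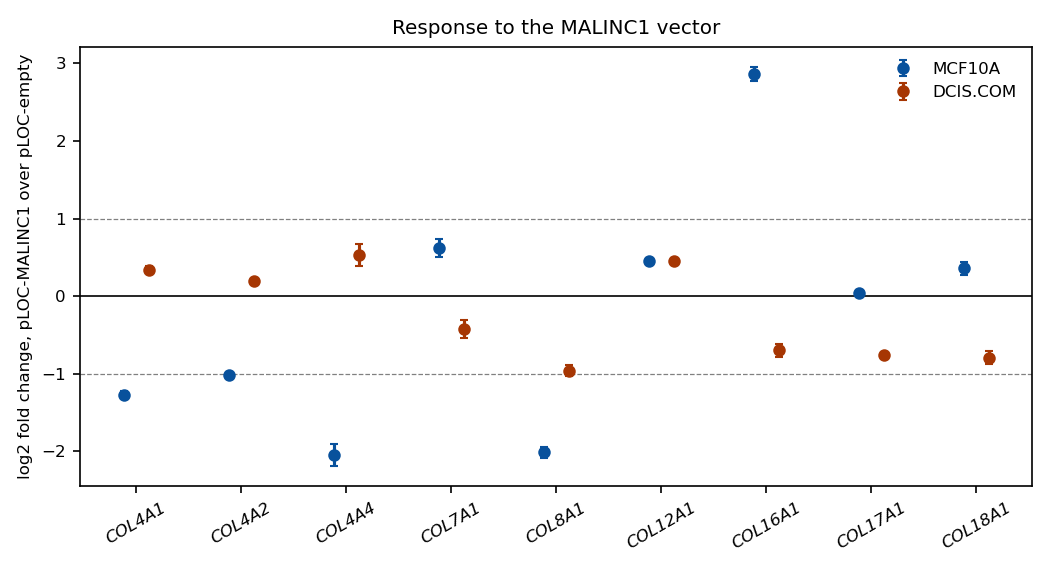
Log2 fold change of pLOC-*MALINC1* over pLOC-empty (vertical axis) for the 9 collagen genes (horizontal axis) in MCF10A and in DCIS.COM. Points are estimates of the limma fit, bars are 1 SE, and dashed lines mark a change of 2-fold. The value of *COL16A1* is 2.86 in MCF10A and −0.70 in DCIS.COM, and that of *COL12A1* is 0.46 in both lines.

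Counted without a limit on the fold, 8 of the 9 genes passed the adjusted p limit in MCF10A, beside 39.6% of all genes, and 8 did so in DCIS.COM, beside 33.2%. With the limit on the fold kept, limma voom on reads recovered from the table called 0 of the 9 in DCIS.COM, like the main fit. The libraries of the vectors did not overlap for any of the 9 genes in either line, as was the case for 76.5% of all genes in MCF10A and 73.1% in DCIS.COM. The median log2 fold change of the 9 genes was 0.042 in MCF10A and −0.42 in DCIS.COM, beside medians over all genes that were near 0 in MCF10A and 0.0089 in DCIS.COM.

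The response to the vector was then compared between the lines, as the log2 fold change in DCIS.COM minus that in MCF10A. The sign of the log2 fold change was opposite in the 2 lines for 7 genes and the same for 2, *COL8A1* and *COL12A1*. The 7 include *COL17A1*, whose value in MCF10A was 0.042 (SE 0.035) and changed sign under quantile normalization. The share of all genes with opposite signs was not counted, so nothing is read from this number. By the same limits, 7 of the 9 differences were called, 4 positive and 3 negative, beside 9.2% of all genes. The positive differences were those of *COL4A1* (1.61, SE 0.064), *COL4A2* (1.21, SE 0.043), *COL4A4* (2.58, SE 0.20) and *COL8A1* (1.05, SE 0.099). The negative differences were those of *COL16A1* (−3.56, SE 0.13), *COL18A1* (−1.15, SE 0.12) and *COL7A1* (−1.04, SE 0.16). Those of *COL8A1* and *COL7A1* were near the 2-fold limit and fell short of it under a pseudocount of 0.5 or 1 CPM and under quantile normalization. That of *COL8A1* also fell short without *RN7SL1* and *RN7SL2* in the totals (0.999) and without replicate 1 of MCF10A with pLOC-empty (0.958) or with pLOC-*MALINC1* (0.992), and that of *COL7A1* without replicate 2 of DCIS.COM with pLOC-empty (−0.866). The difference of *COL17A1* was −0.80 (SE 0.050), short of 2-fold, and that of *COL12A1* was near 0 with an SE of 0.051.

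The lines were compared next with the same vector on both sides. With pLOC-empty all 9 genes were called, 4 higher in DCIS.COM and 5 lower, beside 28.6% of all genes. The genes higher in DCIS.COM were *COL18A1*, by 36.2-fold (log2 fold change 5.18, SE 0.084), *COL16A1*, by 21.9-fold (4.45, SE 0.089), *COL8A1*, by 6.07-fold (2.60, SE 0.070), and *COL12A1*, by 3.07-fold (1.62, SE 0.036). The genes lower in DCIS.COM were *COL4A4*, by 69.7-fold (−6.12, SE 0.14), *COL7A1*, by 7.58-fold (−2.92, SE 0.12), *COL4A1*, by 4.46-fold (−2.16, SE 0.045), *COL17A1*, by 3.91-fold (−1.97, SE 0.035), and *COL4A2*, by 2.44-fold (−1.29, SE 0.031). The value of *COL4A4*, which was near 1 CPM in DCIS.COM, ranged from −6.56 under quantile normalization to −5.11 with a pseudocount of 1 CPM. The lower group thus held the type IV, hemidesmosome and anchoring fibril collagens, and the higher group the short-chain, fibril-associated and collagen XVIII genes.

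With pLOC-*MALINC1* on both sides, 6 of the 9 genes were called, 3 higher in DCIS.COM and 3 lower, beside 26.6% of all genes. Those higher were *COL18A1*, by 16.3-fold, *COL8A1*, by 12.6-fold, and *COL12A1*, by 3.07-fold. Those lower were *COL7A1*, by 15.6-fold, *COL4A4*, by 11.7-fold, and *COL17A1*, by 6.82-fold. The log2 fold change of *COL4A4* moved from −3.55 to −2.85 with a pseudocount of 1 CPM. *COL4A1* (log2 fold change −0.55, SE 0.045), *COL4A2* (−0.08, SE 0.031) and *COL16A1* (0.89, SE 0.089) were not called, and the sign for *COL4A2* turned under quantile normalization. *COL16A1* passed 2-fold without replicate 2 of DCIS.COM with pLOC-*MALINC1*, at 1.02. Set side by side, the gap between the lines was narrower with pLOC-*MALINC1* for 5 genes, wider for 3 and within 0.1 for *COL12A1*. The 3 with a wider gap were *COL7A1*, *COL8A1* and *COL17A1*. The change of the log2 fold change between the lines is the same quantity as the difference of responses above, so these counts are no separate result. The share of all genes with a narrower gap was not counted.

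**Figure D3:**
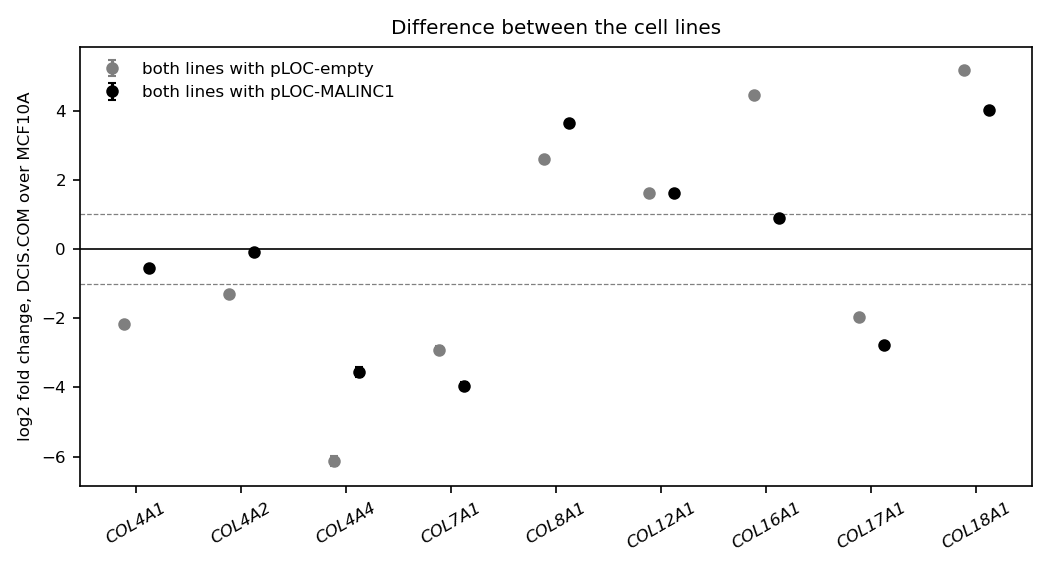
Log2 fold change of DCIS.COM over MCF10A (vertical axis) for the 9 collagen genes (horizontal axis), with pLOC-empty in both lines (grey) and with pLOC-*MALINC1* in both lines (black). Points are estimates of the limma fit, bars are 1 SE where wider than the point, and dashed lines mark a change of 2-fold. *COL4A2* moves from −1.29 to −0.08 and *COL16A1* from 4.45 to 0.89, whereas *COL12A1* stays at 1.62.

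Levels were compared between genes as CPM per kilobase of the canonical transcript. In MCF10A with pLOC-empty *COL17A1* was highest at 235 ± 0.21 (SD, n = 2), ahead of *COL4A2* at 97.7 ± 1.0 and *COL4A1* at 57.8 ± 0.85. *COL4A4*, *COL12A1*, *COL8A1* and *COL7A1* followed at 6.21, 4.85, 3.75 and 2.57 CPM per kilobase, and *COL16A1* and *COL18A1* were lowest at 0.487 and 0.381. In DCIS.COM with pLOC-empty *COL17A1* was again highest at 60.1, ahead of *COL4A2* at 40.0, *COL8A1* at 22.8, *COL12A1* at 14.9 and *COL18A1* at 14.3. *COL4A4* was lowest there, at 0.0826. No 2 neighbours in the order overlapped between libraries in any of the 4 groups.

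With pLOC-*MALINC1* the order changed further. In MCF10A *COL12A1* (6.66), *COL7A1* (3.96) and *COL16A1* (3.62 CPM per kilobase) lay above *COL4A4* (1.501) and *COL8A1* (0.919). Of these, *COL12A1* had been above *COL8A1* with pLOC-empty too. In DCIS.COM *COL4A2* (45.8) lay above *COL17A1* (35.4), but per kilobase of all annotated exons *COL17A1* (28.5) lay above *COL4A2* (15.3). The place of *COL4A1* against *COL16A1* in DCIS.COM with pLOC-empty also turned with the length used.

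As a description over the 8 libraries, with no test, the gene whose log2 CPM was most like each named gene was looked up among 11465 genes that reached 5 CPM in 2 or more libraries. The 8 points share 2 lines and 2 vectors, so most of the variation is between the 4 groups. *COL17A1* was most like *LAMA3*, a laminin chain of the same junction (Pearson r = 0.9997), *COL18A1* most like *ARHGAP26* (0.9996), *COL7A1* most like *EVI5* (0.9994) and *COL12A1* most like *FAF2* (0.9992). *COL4A4* was most like *ULK2* (0.9990), *COL8A1* most like *FBXO32* (0.9990), *COL16A1* most like *GALNT18* (0.9985), *COL4A2* most like *NUMA1* (0.9978) and *COL4A1* most like *KANK2* (0.9977). Between *COL4A1* and *COL4A2* r was 0.976, which placed *COL4A1* at rank 23 for *COL4A2* and *COL4A2* at rank 79 for *COL4A1*. Between *COL4A1* and *COL16A1* r was −0.996.

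Genes that make, cross-link, bind or degrade collagen were looked up from lists of 114 genes, of which 80 were in the table. In MCF10A 9 of the 80 were called, 3 higher and 6 lower, beside 5.5% of all genes, and in DCIS.COM 12, 3 higher and 9 lower, beside 4.53%. The counts that follow for each list stand beside the same shares. The median log2 fold change was −0.01 in MCF10A and −0.07 in DCIS.COM. The adjusted p-values that follow, like those of the other type IV genes above, are from the limma fit over all genes. These lists too were chosen with earlier results of these data known, so the values are a description.

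Of the 13 other collagen genes, 3 were called in MCF10A. *COL4A3* fell as given above, *COL1A1*, a chain of the main fibrillar collagen, fell from 15.2 and 15.9 CPM to 7.45 and 6.68 CPM (log2 fold change −1.14, adjusted p = 1.3e-05), and *COL13A1*, a transmembrane collagen, rose from 0.416 and 0.337 CPM to 1.10 and 1.09 CPM (1.55, adjusted p = 3.3e-05). In DCIS.COM *COL6A1*, a chain of beaded filaments, fell from 5.67 and 6.13 CPM to 1.24 and 1.58 CPM (−2.08, adjusted p = 4.7e-05), and *COL9A3*, a chain known from cartilage, rose from 53.2 and 52.2 CPM to 150 and 157 CPM (1.55, adjusted p = 0.00036). *COL6A1*, *COL9A3* and *COL27A1* had at most 3 reads in each MCF10A library. With pLOC-empty they were at least 49.3-fold, 446-fold and 99.5-fold higher in DCIS.COM, taking 3 reads per library as the floor. Over all 22 collagen genes, 9 were called higher and 10 lower in DCIS.COM with pLOC-empty, beside 28.6% of all genes called in either direction.

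Of 24 genes of chain modification and secretion, 1 was called in each line. *P4HA3*, a prolyl 4-hydroxylase subunit, fell in MCF10A from 9.38 and 9.24 CPM to 2.89 and 2.94 CPM (log2 fold change −1.68, adjusted p = 6.6e-05) and was at most 3 reads in control DCIS.COM. *P3H2*, a prolyl 3-hydroxylase of type IV collagen, fell in DCIS.COM from 80.8 and 75.2 CPM to 40.9 and 36.6 CPM (−1.01, adjusted p = 1.3e-08). *SERPINH1*, the collagen chaperone HSP47, was short of 2-fold in both lines, with a log2 fold change of 0.21 in MCF10A and of −0.94 in DCIS.COM.

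Of 12 genes of processing and cross-linking, 3 were called in MCF10A and 4 in DCIS.COM. *LOX*, the lysyl oxidase that starts cross-linking, fell in MCF10A from 114 and 111 CPM to 38.8 and 37.5 CPM (log2 fold change −1.56, adjusted p = 1.6e-10), and *ADAMTS14*, a procollagen N-proteinase, fell as well (−1.21, adjusted p = 0.0027). *ADAMTS3*, named here after its values were seen because it completes the count, rose from 0.347 and 0.514 CPM to 0.991 and 1.13 CPM (1.32, adjusted p = 0.00032). In DCIS.COM *TGM2*, a transglutaminase, fell from 57.9 and 62.8 CPM to 8.02 and 7.43 CPM (−2.97, adjusted p = 1.3e-08) and *LOXL2*, another lysyl oxidase, fell from 67.2 and 71.3 CPM to 32.7 and 29.5 CPM (−1.16, adjusted p = 8.9e-09). The other calls there, *TLL1* lower and *ADAMTS14* higher, rested on at most 5 reads in any library. *LOX* was also lower in DCIS.COM, from 48.5 and 49.6 CPM to 25.5 and 27.4 CPM, but was not called. Likewise *LOXL2* was lower in MCF10A, from 135 and 129 CPM to 67.6 and 72.1 CPM, and was not called.

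Of 7 collagen receptors, none was called in MCF10A, where 4 passed the adjusted p limit at any fold, beside 39.6% of all genes. In DCIS.COM *ITGA10*, an integrin subunit that binds collagen, fell from 8.14 and 7.38 CPM to 2.11 and 1.61 CPM (log2 fold change −2.07, adjusted p = 8.0e-06). Of 11 genes of collagen degradation, *FAP*, a serine protease of the cell surface, fell in MCF10A from 71.1 and 69.5 CPM to 34.0 and 36.1 CPM (−1.004, adjusted p = 2.9e-05). It also fell in DCIS.COM, from 4.69 and 5.32 CPM to 0.596 and 0.781 CPM (−2.87, adjusted p = 3.8e-09). *MMP10*, a metalloproteinase also named after its values were seen, rose in MCF10A from 0.209 and 0.0713 CPM to 1.63 and 1.96 CPM. In DCIS.COM *MMP16*, a membrane-type metalloproteinase, rose from 8.51 and 8.66 CPM to 44.5 and 48.6 CPM (2.44, adjusted p = 1.9e-06) and *MMP2*, a gelatinase that cleaves type IV collagen, fell (−1.04, adjusted p = 3.5e-06).

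Of 13 hemidesmosome and basement membrane partners, none was called in MCF10A, where 10 passed the adjusted p limit at any fold, beside 39.6% of all genes, and 1 was called in DCIS.COM, beside 4.53%. *LAMA3* fell there from 311 and 311 CPM to 150 and 161 CPM (2.003-fold lower, adjusted p = 2.6e-09), beside a log2 fold change of −0.76 for *COL17A1*. *LAMB3*, another laminin chain of the junction, differed by 0.21 in MCF10A and by −0.89 in DCIS.COM on the log2 scale. Between the lines with pLOC-empty, 8 of the 13 were called, 3 higher in DCIS.COM and 5 lower, beside 28.6% of all genes. *LAMA3* (−2.82) and *LAMB3* (−1.30) were lower in DCIS.COM, with adjusted p-values of 1.8e-14 and 2.0e-12. *ITGB4* went the other way, at means of 517 CPM in MCF10A and 1629 CPM in DCIS.COM, as did *ITGA6*, at 1142 and 1823 CPM.

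**Figure D4:**
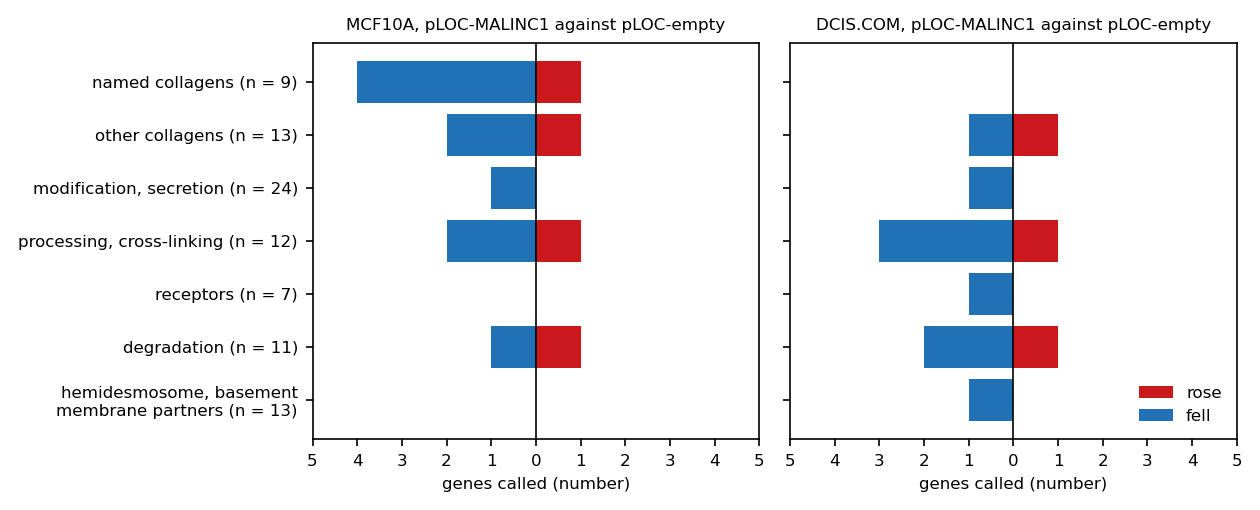
Number of genes called higher (red, to the right of 0) and lower (blue, to the left) with pLOC-*MALINC1* in MCF10A and in DCIS.COM (horizontal axes), for the 9 named collagens and the 6 lists of related genes (vertical axis, n is the number of list members in the table). The named collagens show 4 lower and 1 higher in MCF10A and none in DCIS.COM, and they were chosen with these results known.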

How the data were processed

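RNA-seq of 8 libraries (4 groups of 2, grouped by their titles) was analysed from 1 deposited table. Per the labels and methods, the authors aligned 76 nt paired-end reads to hg19 by means of Rsubread, assigned them to UCSC gene models (featureCounts) and made log2 CPM with edgeR. The strand setting, tool versions and low-expression filter were not given in the sources used here. The deposited log2 values hold a small prior count, which understates changes of low genes. Printed CPM are 2 to the power of these values, prior included. In all libraries 100% of values came out as whole reads (tolerance 0.05), which gave the depths.

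The members and gene lists were chosen with earlier results of these data known. All 13842 genes, 346 of them without a symbol, were fitted with limma 3.58.1 (R 4.3.3; 4 group means, trended variance, residual df 4, prior df 7.98), with Benjamini-Hochberg adjustment over all genes and the study's limits (adjusted p under 0.01, over 2-fold). Named genes were all members; other collagens called in any comparison; from each related list up to 3 called genes per comparison of the largest change at 5 CPM or more in the higher group; *MALINC1*; and the gene most like each member. The text gives a part of the related genes so named, and some are not reported here. Replicates correlated at r = 0.996 to 0.997 across genes. Positions and sequences are from GRCh37 with GENCODE. The alternatives were pseudocounts, filters, scalings, models, thresholds, a replicate block and leaving out each library. A count of 3 reads was taken as the floor for fold bounds.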

Additional observations from a re-analysis of the deposited data

Results flagged for a closer look

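For 7 collagen genes the response to pLOC-*MALINC1* differed between the lines in the interaction term of the limma fit, which the choice of genes with results known makes a description. The log2 fold change in DCIS.COM minus that in MCF10A was 1.61 for *COL4A1*, 1.21 for *COL4A2*, 2.58 for *COL4A4*, 1.05 for *COL8A1*, −1.04 for *COL7A1*, −3.56 for *COL16A1* and −1.15 for *COL18A1*. Groups of 2 libraries are too small to look for a single library apart from the others.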

How the results depend on the processing

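Of 855 alternative values for the 45 fold changes of the named collagens, 833 kept their direction and side of the limits, 12 kept the direction and lost the call, 2 gained one and 8 changed sign. The sign changed for *COL4A2* between the lines with pLOC-*MALINC1* (0.0307) and for *COL17A1* in MCF10A (−0.0755) under quantile normalization. It also changed for the *COL12A1* difference between responses, to −0.0542 without *RN7SL1* and *RN7SL2* in the totals, to −0.0015 with limma voom and, over the fits that left out 1 library each, ranged from −0.0318 to 0.033. With no limit on the fold, named collagens called rose from 5 to 8 in MCF10A and from 0 to 8 in DCIS.COM, and related genes to 50 in MCF10A, 40 in DCIS.COM, 47 for the difference, 68 between lines with pLOC-empty and 74 with pLOC-*MALINC1*. In DCIS.COM 1 named collagen was called without *RN7SL1* and *RN7SL2*, and 7 related genes in place of 12 with a pseudocount of 1 CPM. The cause was not tested. Leaving out each library gave 4 to 5 named collagens called in MCF10A, 0 in DCIS.COM, 6 to 7 for the difference, 9 between lines with pLOC-empty and 6 to 7 with pLOC-*MALINC1*. For related genes it gave 7 to 11, 9 to 12, 17 to 22, 44 to 45 and 44 to 45. The labels do not say that equal numbers share a culture, and same-numbered libraries deviated together by r = −0.15 to 0.11. With the replicate block the counts of named collagens were 5, 0, 7, 9 and 6 and of related genes 9, 12, 19, 44 and 45, in the same order, and with crossed numbers in MCF10A, a fit added after seeing the data, 5 and 9. Among the 9 named genes, *COL4A4*, at 15 to 44 reads in the DCIS.COM libraries, had the largest SE between vectors, 0.14. The fit gives each gene 1 such SE for both lines.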
